A study of Mus musculus with 2 samples.

Results

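The type I interferon receptor and the JAK-STAT relay behind it were described here through 7 genes, Ifnar1, Ifnar2, Jak1, Tyk2, Stat2, Irf9 and Socs1. These were chosen by symbol from the 32285 genes counted in both libraries, and all 7 were found. The study treated mouse MC38 subcutaneous tumors with MSA-2, a small-molecule, non-nucleotide agonist of the innate sensor STING, and profiled dissociated cells by single-cell RNA-seq. MC38 is a mouse colon carcinoma line, grown here in C57BL/6 mice whose age is not in the labels. The untreated library, named a negative control by its label, came from tumors injected with saline containing DMSO, and the MSA-2 library from tumors injected with the drug. Both sets of tumors received 3 intratumoral injections at intervals of 3 days and were taken on day 7, and tumors of 3 mice appear to have been pooled for each library. There was thus 1 library per condition, so no test between conditions was possible, and the intervals given throughout are exact 95% intervals that cover counting error only.

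Type I interferons bind a receptor made of the IFNAR1 and IFNAR2 chains, which hold the kinases TYK2 and JAK1. The kinases phosphorylate STAT proteins, among them STAT2, which joins IRF9 in ISGF3, a complex that binds interferon-stimulated response elements (ISREs) in the promoters of interferon-stimulated genes. SOCS1 is an inducible inhibitor that blocks the kinases, so the relay carries its own brake, and in tumors it acts in cancer, stromal and immune cells alike.

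RefSeq windows were searched from 250 bases before to 50 bases after each annotated start on GRCm38.p6. The windows of only 2 of the 7 genes held the core letters of an ISRE. They are shown up to the base before the start because the genes behind them, Stat2 and Socs1, are those whose MSA-2 values are set against each other below. Capitals mark GAAANNGAAA on either strand.

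Stat2, chr10:128270248-128270497, plus strand: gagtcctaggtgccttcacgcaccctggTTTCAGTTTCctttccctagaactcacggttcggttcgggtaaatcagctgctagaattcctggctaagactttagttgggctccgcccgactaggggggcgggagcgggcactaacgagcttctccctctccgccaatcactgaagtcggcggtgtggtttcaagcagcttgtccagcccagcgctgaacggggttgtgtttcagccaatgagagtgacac
Socs1, chr16:10785537-10785786, minus strand: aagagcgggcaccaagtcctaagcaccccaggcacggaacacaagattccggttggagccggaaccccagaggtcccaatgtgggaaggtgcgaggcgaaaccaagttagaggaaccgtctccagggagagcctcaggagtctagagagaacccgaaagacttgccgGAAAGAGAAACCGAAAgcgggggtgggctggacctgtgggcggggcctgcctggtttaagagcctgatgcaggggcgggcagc

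The Stat2 match lay 222 to 213 bases before the start and read GAAANNGAAA on the minus strand. Socs1 held 2 overlapping matches, at 83 to 74 and at 77 to 68 bases before its start. These letters occurred in 3.44% of 32851 mouse promoter windows of 300 bases. No match was found in the windows of Ifnar1, Ifnar2, Jak1, Tyk2 or in either of the 2 windows of Irf9. Both Irf9 windows, chr14:55603735-55604034 and chr14:55604329-55604628, lie inside the gene span given below. The bases before the start of that span, chr14:55603571, were not searched. The letters of a gamma-activated site, TTCNNNGAA, which read the same on both strands, occurred in 8.3% of windows and among the members in those of Ifnar1 and Ifnar2. A match describes the letters in a window and was not tested as a binding site.

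On GRCm38 (GENCODE M21), both receptor genes lie on the plus strand of chromosome 16, Ifnar2 at chr16:91372783-91405589 and Ifnar1 at chr16:91485238-91507441. The same cluster holds the receptor genes Il10rb, at chr16:91406164-91425834, and Ifngr2, at chr16:91547072-91565623. Socs1 lies far from them on the same chromosome, at chr16:10782240-10785536 on the minus strand. Jak1 is at chr4:101152367-101265282 (minus), Tyk2 at chr9:21104068-21131243 (minus), Stat2 at chr10:128270559-128292849 (plus) and Irf9 at chr14:55603571-55610030 (plus). Tyk2 shares 24326 bases with the antisense gene 1700084C06Rik. The 3′ kit marks strand, and the strand setting of the counting is not given in the sources used here. Irf9 shares 123 bases at its 5′ end with Rnf31 on the same strand, and Jak1 shares 4 bases with Raver2 on the other strand. Ifnar2 overlaps the gene model Gm21970, which was not among the counted genes.

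After filtering, 13334 untreated and 13393 MSA-2 cells remained, with medians of 8298.5 and 9271 unique molecular identifiers (UMIs, each counting 1 captured mRNA molecule); 53 barcodes occurred in both libraries. Cells were placed in classes by marker genes, and each class name means cells passing that gate, not an annotation by the authors. Tumor-like cells numbered 6494 untreated and 6918 MSA-2, macrophage-like cells 3911 and 1280, monocyte-like cells 254 and 716, fibroblast-like cells 294 and 759, endothelial-like cells 61 and 74, T-like cells 1246 and 152, and NK-like cells 161 and 106. Dendritic-like cells (230 and 13) and neutrophil-like cells (25 and 2541) were too few in 1 library for a ratio. Dendritic-like MSA-2 and neutrophil-like untreated cells were also left out of the rankings of levels. So were pericyte-like cells (22 and 15) and mast-like cells (16 and 16), which were too few in both libraries. The methods describe sorted cells and call those kept immune cells, and the labels call all cells tumor cells, while the tumor-like gate took 48.7% of untreated and 51.7% of MSA-2 cells. In the tumor-like class the epithelial markers Krt8, Krt18, Krt19 and Epcam were at no more than 0.31 CPM, the UMIs of a gene per 1000000 UMIs of its class, and the gate rested on Gng11, Anxa1 and Ccn1 at 323 to 2105 CPM. Neutrophil markers were higher in every other MSA-2 class, where 9 or 10 of 10 had UMIs and their sum was 470 to 1941 CPM against 7.96 to 296 CPM in untreated classes. Macrophage markers moved the other way in the classes outside that gate, from sums of 729 to 2644 CPM untreated to 190 to 1291 CPM. Levels below are CPM, and ratios are log2 of MSA-2 over untreated CPM.

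**Figure D1:**
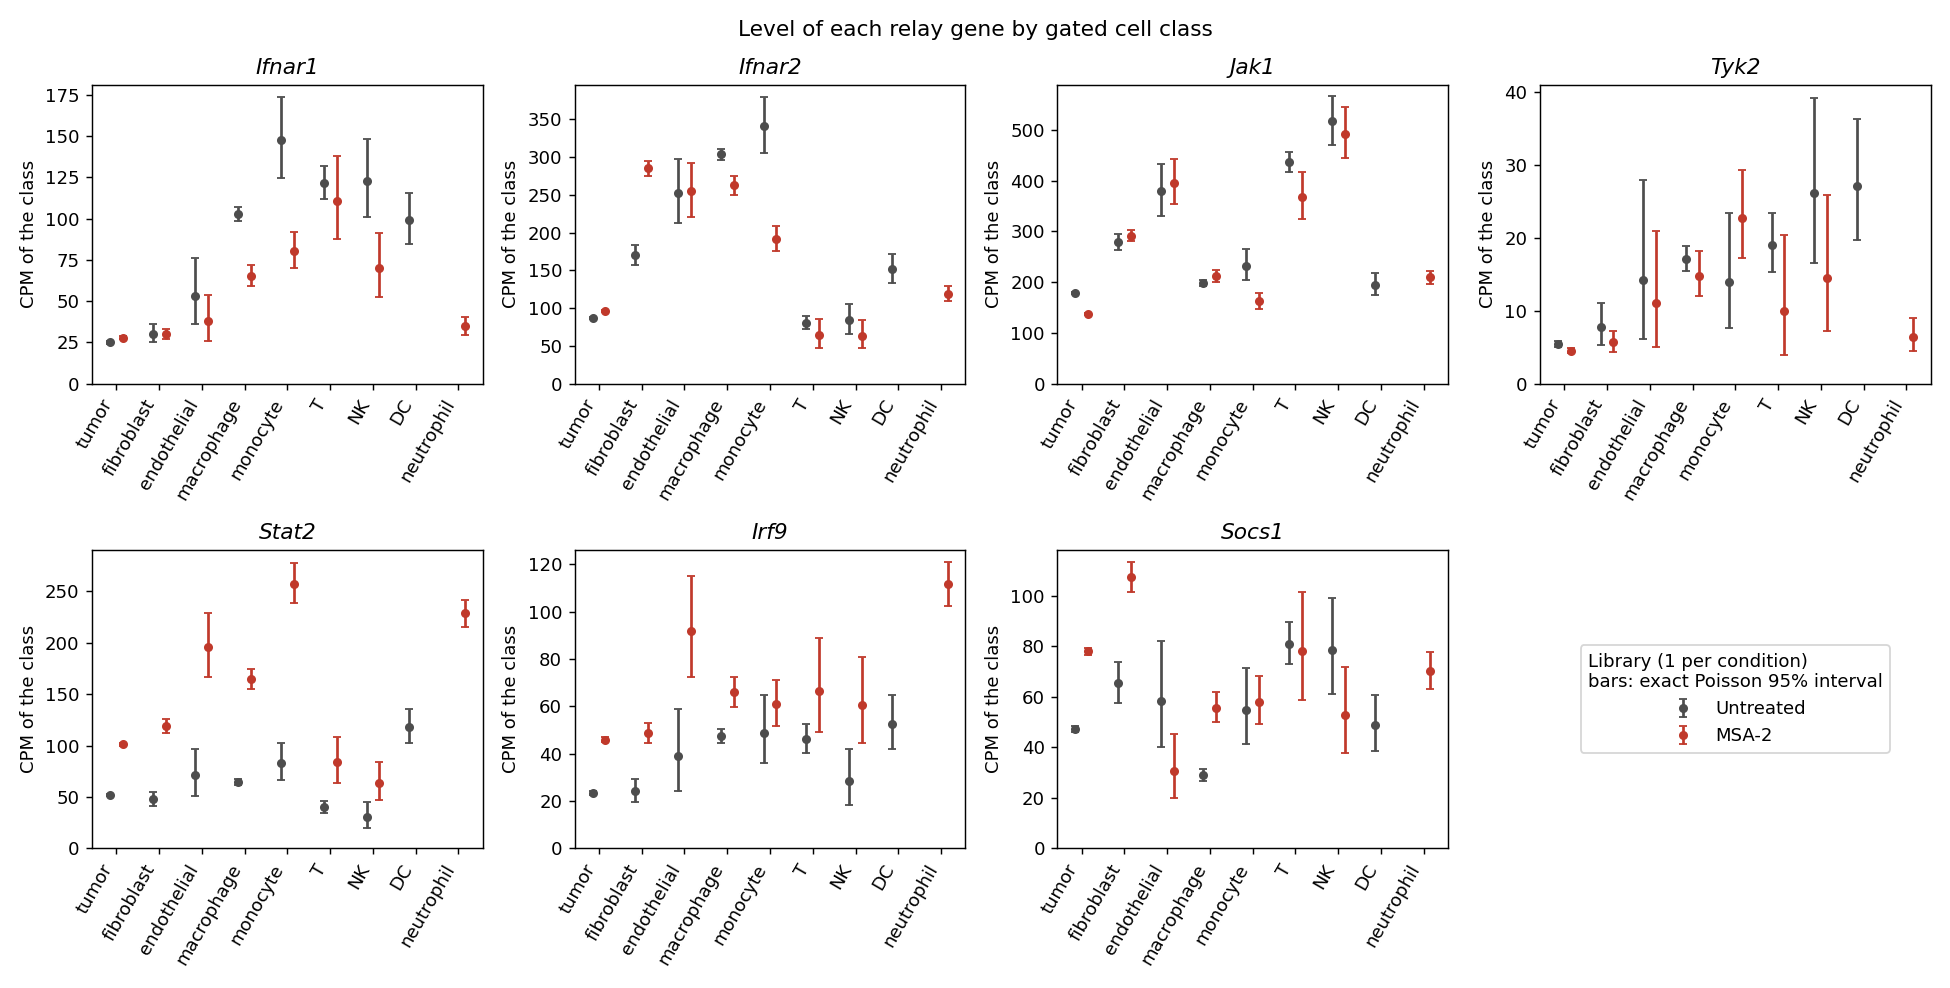
Level of each member (y axis, CPM of the class, starting at 0) in 9 gated cell classes (x axis) in the untreated (grey) and MSA-2 (red) library; bars are exact Poisson 95% intervals, and dendritic-like MSA-2 and neutrophil-like untreated cells are left out as too few. Stat2 lay higher with MSA-2 in all 7 classes with both libraries, while Ifnar1 lay lower in macrophage-like, monocyte-like and NK-like cells.

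Both receptor chains were lower with MSA-2 in macrophage-like and monocyte-like cells and slightly higher in tumor-like cells, beyond counting error. In NK-like cells the interval excluded 0 for Ifnar1 and not for Ifnar2, and in fibroblast-like cells Ifnar2 was higher while the Ifnar1 interval included 0.

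In untreated tumors Ifnar1 was an immune-cell-weighted gene. It was at 148 CPM in monocyte-like, 123 CPM in NK-like, 122 CPM in T-like, 103 CPM in macrophage-like and 99.4 CPM in dendritic-like cells. It stood at 53.2 CPM in endothelial-like, 30.2 CPM in fibroblast-like and 25.0 CPM in tumor-like cells. Monocyte-like and NK-like cells did not differ beyond counting error, nor did NK-like and T-like cells, whereas T-like lay above macrophage-like, endothelial-like above fibroblast-like and fibroblast-like above tumor-like cells. With MSA-2, T-like cells were highest at 111 CPM. Monocyte-like cells were at 80.5 CPM, a log2 ratio of -0.88 (-1.19 to -0.56). Other genes of that class also differed between the libraries, among them Cd74 at 4830 and 308 CPM, Lyz2 at 5147 and 1557 CPM, Ccr2 at 325 and 115 CPM and Nkg7 at 98.9 and 11.2 CPM, untreated and with MSA-2. Their part in the monocyte-like Ifnar1, Ifnar2 and Jak1 ratios was not tested. Macrophage-like cells were at 65.2 CPM, a ratio of -0.66 (-0.81 to -0.51). NK-like cells were at 69.8 CPM, a ratio of -0.81 (-1.32 to -0.33). T-like cells kept a ratio near 0 at -0.14 (-0.50 to 0.21). Fibroblast-like cells held 29.9 CPM with MSA-2 and a ratio of -0.02, with an interval that included 0. Tumor-like cells were slightly higher at 27.9 CPM, a ratio of 0.16 (0.10 to 0.22), and endothelial-like cells were at 37.9 CPM, a ratio of -0.49 (-1.26 to 0.29). The lower Ifnar1 level of macrophage-like cells appeared on both sides of a split on C1q genes, at -0.64 (-0.82 to -0.48) where C1q was high and -0.88 (-1.25 to -0.53) where it was low.

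Ifnar2 encodes the chain that holds JAK1 and carries the main STAT docking sites. Its untreated level was highest in monocyte-like cells at 341 CPM, followed by macrophage-like cells at 303 CPM and endothelial-like cells at 252 CPM. Fibroblast-like cells were at 170 CPM and dendritic-like cells at 152 CPM, which did not differ beyond counting error. Tumor-like, NK-like and T-like cells were lowest, at 86.8, 84.2 and 80.6 CPM, and did not differ from one another as neighbours. Ifnar2 was thus low in the lymphoid classes in which Ifnar1 was high. With MSA-2, fibroblast-like cells moved to the top of the ranked classes at 285 CPM, a log2 ratio of 0.75 (0.63 to 0.87). The 15 pericyte-like MSA-2 cells, left out of the ranking, were at 305 CPM (217 to 418). Monocyte-like cells were at 191 CPM, a ratio of -0.83 (-1.03 to -0.63), which was -0.52 with TMM scaling and -0.29 when the macrophage, monocyte and dendritic gates were joined. Macrophage-like cells were at 262 CPM, a ratio of -0.21 (-0.29 to -0.13). Endothelial-like cells stayed at 255 CPM, a ratio of 0.02 (-0.30 to 0.33). Tumor-like cells were at 96.5 CPM, a ratio of 0.15. T-like cells were at 63.8 CPM and NK-like cells at 63.2 CPM, with ratios of -0.34 and -0.41 whose intervals included 0. At the macrophage-like cells' own ratio of Ifnar2 to macrophage markers, the macrophage marker sum in T-like cells would carry 13.6 CPM of Ifnar2 in the untreated and 2.06 CPM in the MSA-2 library.

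Jak1 and Tyk2 did not reach 2-fold in any class as processed here, and Tyk2 alone of them did so under other settings. Jak1, the kinase shared by many cytokine receptors, was highest in NK-like cells, at 518 CPM untreated and 493 CPM with MSA-2, and lowest in tumor-like cells, at 179 and 138 CPM. In T-like cells Jak1 was at 437 and 369 CPM, in endothelial-like cells at 379 and 397 CPM and in fibroblast-like cells at 279 and 292 CPM. These levels placed lymphoid and stromal classes above the myeloid ones in both libraries, where macrophage-like cells had 199 and 212 CPM. The Jak1 log2 ratio was -0.37 (-0.40 to -0.35) in tumor-like cells, -0.52 (-0.75 to -0.28) in monocyte-like cells and -0.24 (-0.44 to -0.06) in T-like cells. It lay between -0.07 and 0.09 in the other 4 classes. The monocyte-like ratio was -0.02 when the macrophage, monocyte and dendritic gates were joined. Among tumor-like cells the lower Jak1 level appeared in cells with cycling markers, with a ratio of -0.31, and in the rest, with -0.30.

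Tyk2, the kinase bound to IFNAR1, had few UMIs. It was at 5.40 CPM untreated and 4.55 CPM with MSA-2 in tumor-like cells, a log2 ratio of -0.25 and the only one of the 7 classes whose interval excluded 0. In macrophage-like cells it was at 17.1 and 14.8 CPM. In NK-like cells it was at 26.2 and 14.5 CPM and in T-like cells at 19.1 and 9.93 CPM, the last from 7 UMIs. Monocyte-like cells had 14.0 and 22.7 CPM, a ratio of 0.70 (-0.16 to 1.66). Over all cells the Tyk2 ratio was -0.52 (-0.63 to -0.40).

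**Figure D2:**
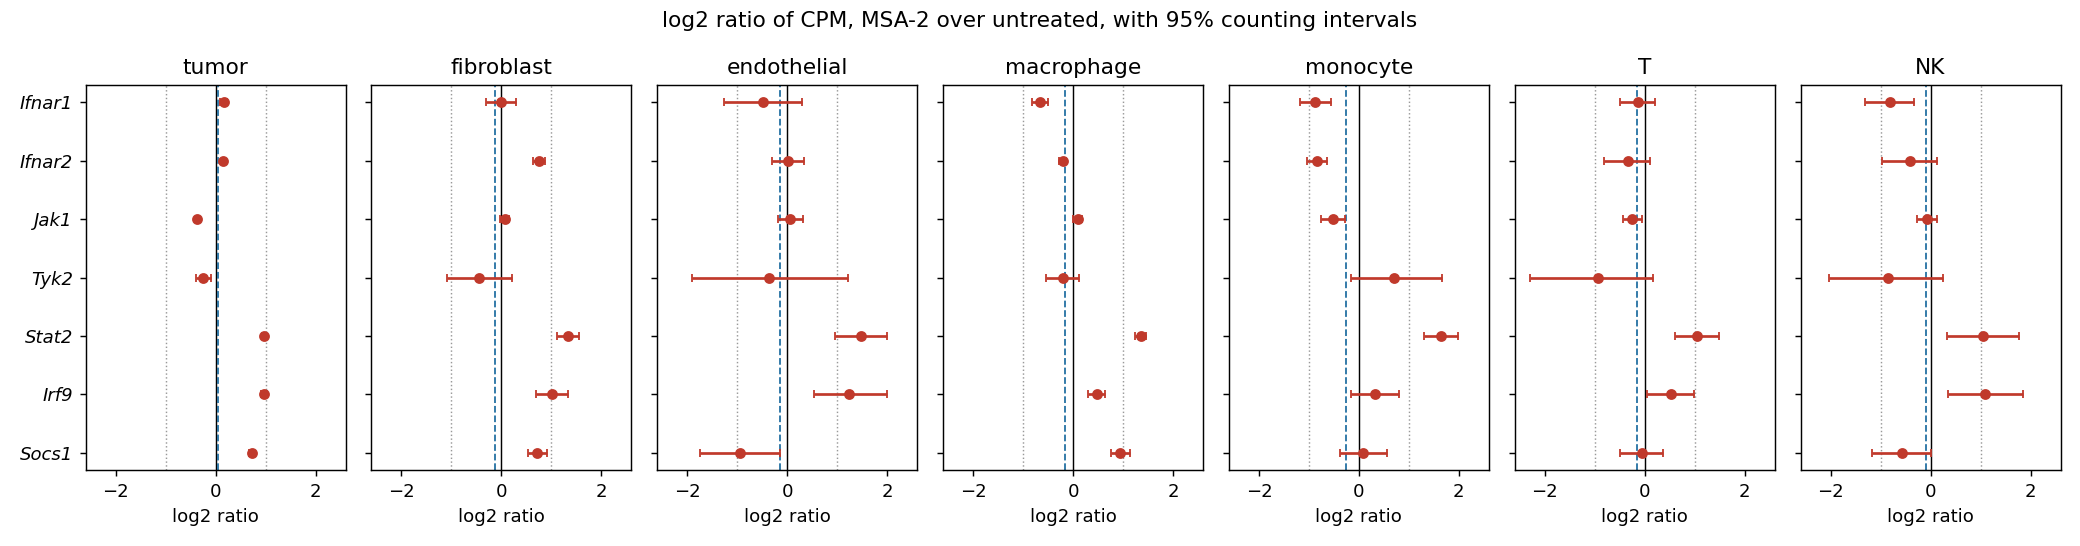
Log2 ratio of CPM, MSA-2 over untreated (x axis), of each member (y axis) in 7 gated classes, with conditional binomial 95% intervals; the solid line is 0, dotted lines mark 2-fold, and the dashed blue line is the median over all genes with at least 50 UMIs. Stat2 lies right of 0 in every class, from 0.96 to 1.63, while Socs1 lies on both sides, from 0.95 in macrophage-like to -0.94 in endothelial-like cells (-0.14 with equal weight per cell).

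Stat2, the STAT particular to type I and type III interferon signaling, was higher with MSA-2 in all 7 classes, and each interval excluded 0. Its level went from 52.0 to 101 CPM in tumor-like cells, a log2 ratio of 0.96 (0.922 to 1.002). In fibroblast-like cells it went from 47.6 to 119 CPM, a ratio of 1.32 (1.10 to 1.55). In endothelial-like cells it went from 70.9 to 196 CPM, a ratio of 1.47 (0.958 to 2.003). The myeloid classes showed changes of like size. Macrophage-like cells went from 64.5 to 165 CPM, a ratio of 1.35 (1.23 to 1.47). Monocyte-like cells went from 82.9 to 257 CPM, a ratio of 1.63 (1.30 to 1.98). Lymphoid classes had the lowest Stat2 levels of the ranked classes in both libraries. T-like cells did not differ beyond counting error from the class next above, fibroblast-like untreated and tumor-like with MSA-2. T-like cells went from 40.3 to 83.7 CPM, a ratio of 1.05 (0.61 to 1.48). NK-like cells went from 30.7 to 63.2 CPM, a ratio of 1.04 (0.33 to 1.78). Within the tumor-like class the Stat2 ratio was 1.12 (1.06 to 1.19) in cells with cycling markers and 0.91 (0.85 to 0.96) in the rest, and these intervals did not overlap. The ratio was 1.30 in C1q-high and 1.39 in C1q-low macrophage-like cells.

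Irf9, the DNA-binding partner of STAT2, was higher with MSA-2 in 6 of 7 classes beyond counting error, with a smaller ratio than Stat2 in the myeloid classes. In tumor-like cells it went from 23.5 to 45.8 CPM, a log2 ratio of 0.96 (0.91 to 1.02). In fibroblast-like cells it went from 24.1 to 48.6 CPM, a ratio of 1.01 (0.70 to 1.33). In NK-like cells it went from 28.4 to 60.6 CPM, a ratio of 1.09 (0.36 to 1.86) that was 0.42 with a stricter gate. The 4 other classes spanned a wide range. Endothelial-like cells went from 39.0 to 91.8 CPM, a ratio of 1.23 (0.53 to 1.99) that was 0.50 with equal weight per cell. Macrophage-like cells went from 47.5 to 65.9 CPM, a ratio of 0.47 (0.30 to 0.64), and T-like cells from 46.1 to 66.7 CPM, a ratio of 0.53 (0.05 to 0.99). Monocyte-like cells were at 48.9 and 60.9 CPM, a ratio of 0.31 (-0.16 to 0.81) that was within counting error. In macrophage-like cells the Irf9 interval lay wholly below that of Stat2, and the same held in monocyte-like cells.

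Neutrophil-like cells, seen almost only with MSA-2, had the highest Irf9 level of the ranked MSA-2 classes at 111 CPM (103 to 121). That level did not differ from endothelial-like cells beyond counting error. The 13 dendritic-like MSA-2 cells, left out of the ranking, were at 193 CPM (96.4 to 345) on 11 UMIs. The Stat2 level of neutrophil-like cells, at 228 CPM (216 to 242), was below that of monocyte-like cells. In neutrophil-like cells Ifnar1 was low at 34.7 CPM and Tyk2 was at 6.47 CPM. At the neutrophil-like cells' own ratio of Stat2 to neutrophil markers, the marker sums in the other MSA-2 classes would carry 1.06 to 4.38 CPM of Stat2, against Stat2 levels of 63.2 to 257 CPM.

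Socs1, the inducible inhibitor of the receptor-bound kinases, differed in direction between classes. It was higher with MSA-2 in tumor-like cells, from 47.4 to 78.0 CPM, with a log2 ratio of 0.72 (0.68 to 0.76). Fibroblast-like cells went from 65.4 to 107 CPM, a ratio of 0.72 (0.52 to 0.91). Macrophage-like cells went from 28.9 CPM, the lowest untreated level, to 55.8 CPM, a ratio of 0.95 (0.76 to 1.14). The other 4 of the 7 classes gave lower ratios. T-like cells had 81.0 and 78.0 CPM, a ratio of -0.05, and monocyte-like cells had 54.9 and 58.2 CPM, a ratio of 0.08 that was 0.87 when the macrophage, monocyte and dendritic gates were joined. NK-like cells had 78.5 and 52.7 CPM, a ratio of -0.57 (-1.17 to 0.01). Endothelial-like cells went from 58.5 to 30.6 CPM, a ratio of -0.94 (-1.75 to -0.14), on 33 and 25 UMIs, and this ratio was -0.14 with equal weight per cell and -1.38 with doublets kept. Among T-like cells with Cd8a or Cd8b1 UMIs, the Socs1 ratio was 0.10 (-0.40 to 0.57) and the Stat2 ratio 1.39.

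The members were read against all genes with at least 50 UMIs in a class over both libraries, with a 2-fold difference as the mark, since 1 library per condition allows no test. All 7 members passed that minimum in 5 classes, and 6 did in endothelial-like and NK-like cells, where Tyk2 did not. In tumor-like cells 0 of 7 members were at least 2-fold higher, where 9.36% of all genes were, and 0 were 2-fold lower, where 5.1% were. In fibroblast-like cells Stat2 and Irf9 were 2-fold higher, against 6.3% of genes, and 0 lower, against 5.78%. In endothelial-like cells the same 2 members were, against 5.39% of genes, with 0 lower against 4.75%. In NK-like cells it was again these 2, against 5.17%, with 0 lower against 5.13%. In macrophage-like cells Stat2 alone was 2-fold higher, against 6.51% of genes, and 0 members were lower, against 5.74%. Stat2 alone was also past this mark in monocyte-like cells, where 11% of genes were higher and 10.2% lower, and in T-like cells, where 3.86% were higher and 9.26% lower, with 0 members lower in either. Several of these values lay close to the mark. Under at least 1 other processing setting the Stat2 ratio was as low as 0.94 in T-like and 0.88 in NK-like cells, and the Irf9 ratio as low as 0.82 in fibroblast-like, 0.50 in endothelial-like and 0.42 in NK-like cells. The Stat2 ratio was above that of 90.0% to 96.9% of the genes in each class. The median ratio of the members was 0.72 in fibroblast-like cells against -0.14 over all genes, 0.16 against 0.06 in tumor-like cells and -0.41 against -0.10 in NK-like cells. In the remaining 4 classes it was between -0.14 and 0.09 against medians of -0.26 to -0.14.

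**Figure D3:**
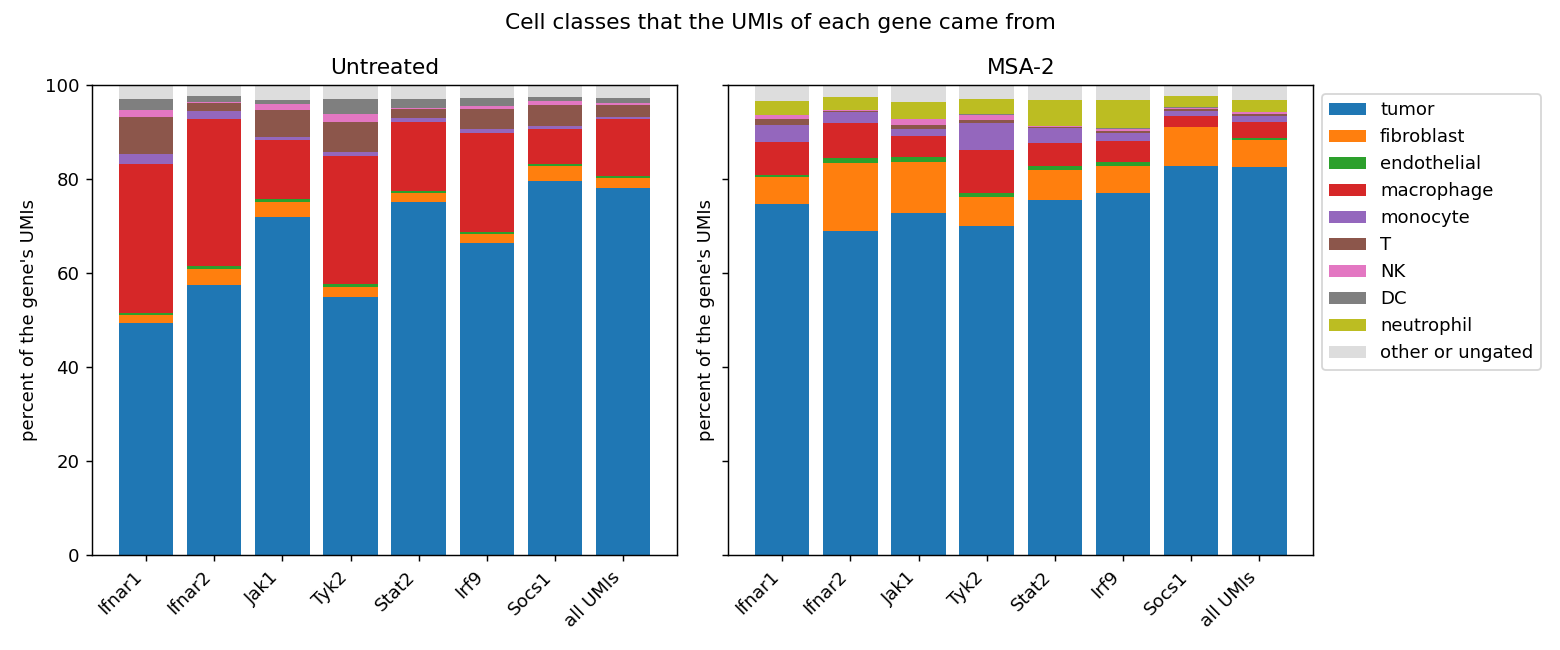
Share of each member's UMIs (y axis, percent, stacked to 100) that came from each gated class, beside the share of all UMIs, in the untreated and the MSA-2 library. Macrophage-like cells gave 31.7% of untreated Ifnar1 UMIs and 12.2% of all UMIs, and 6.99% and 3.30% with MSA-2.

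Because the classes differed in size, sums over all cells gave other values for the receptor. Over all cells Ifnar1 was at 39.5 CPM untreated and 30.8 CPM with MSA-2, a log2 ratio of -0.36, although tumor-like cells, which gave 49.4% and 74.7% of its UMIs, were slightly higher. Ifnar2 over all cells had a ratio of -0.03. Fibroblast-like cells gave 3.23% of Ifnar2 UMIs untreated and 14.5% with MSA-2, and macrophage-like cells gave 31.4% and 7.51%. Stat2 had a ratio of 1.03 over all cells, Irf9 0.83 and Socs1 0.74, close to their tumor-like values.

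**Figure D4:**
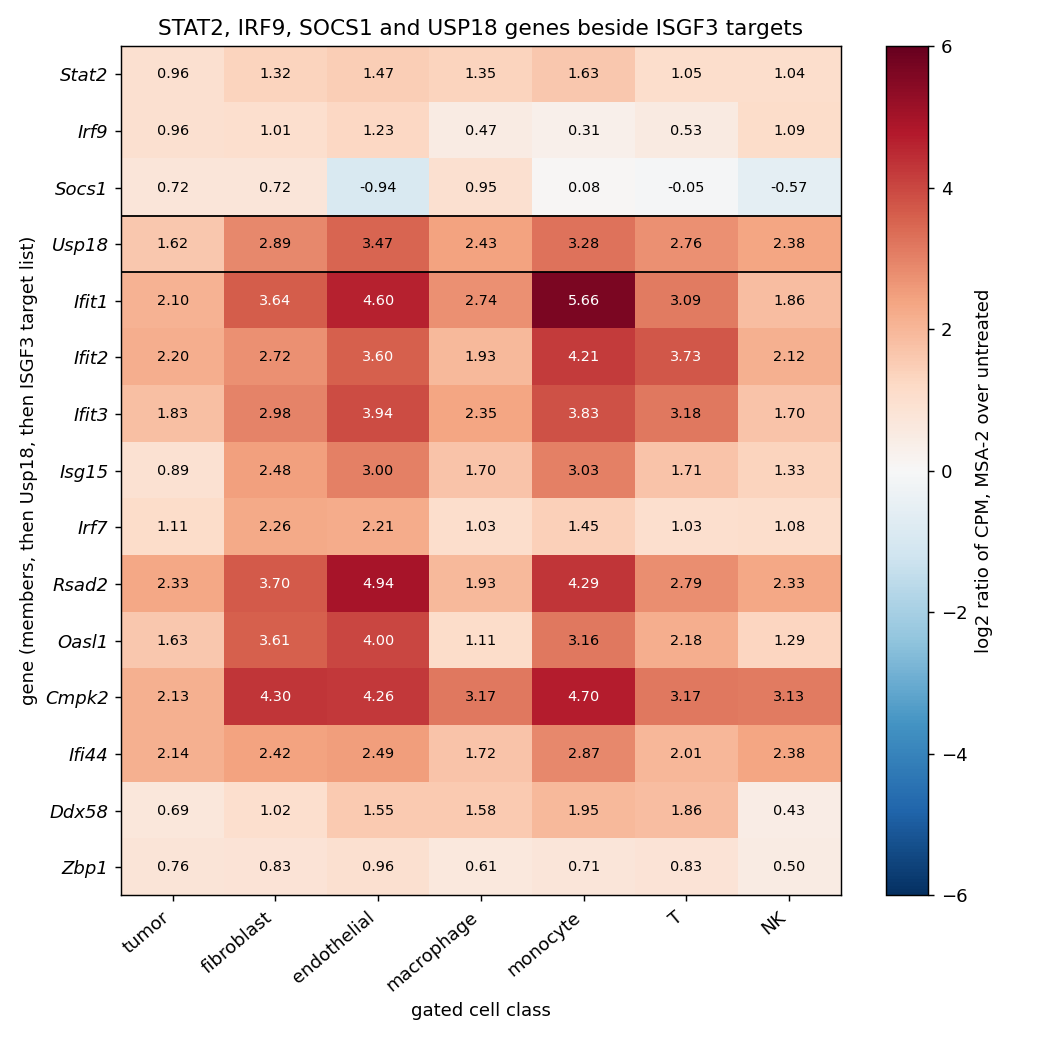
Log2 ratio of CPM, MSA-2 over untreated (color and printed value), of Stat2, Irf9, Socs1, Usp18 and 11 ISGF3 target genes (rows) in 7 gated classes (columns). Usp18 lies between 1.62 and 3.47 in every class, while Socs1 values lie on both sides of 0.

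Downstream of the relay, 11 of 13 listed ISGF3 targets were present among the counted genes; Mx1 and Mx2 were not used here. Of these, 8 were at least 2-fold higher in tumor-like cells, 9 in NK-like cells and 10 in each of the other 5 classes, and 0 were 2-fold lower in any. Over all genes with at least 50 UMIs, 3.86% (T-like) to 11% (monocyte-like) were 2-fold higher. From 4.75% (endothelial-like) to 10.2% (monocyte-like) were 2-fold lower. The list's median log2 ratio was 1.83 in tumor-like, 2.72 in fibroblast-like, 3.60 in endothelial-like, 1.72 in macrophage-like, 3.16 in monocyte-like, 2.18 in T-like and 1.70 in NK-like cells. In monocyte-like cells Ifit1, which encodes an inhibitor of viral RNA translation, went from 56.9 to 2875 CPM, a ratio of 5.66 (5.28 to 6.06). That ratio was 3.09 when the macrophage, monocyte and dendritic gates were joined. In tumor-like cells Ifit1 went from 93.2 to 400.1 CPM, a ratio of 2.10. Isg15, a ubiquitin-like modifier, went from 344 to 2801 CPM in monocyte-like cells and from 266 to 494 CPM in tumor-like cells. Its monocyte-like ratio was 3.03, and 1.89 with the joined gates. Zbp1, a nucleic acid sensor, was the target that stayed under 2-fold in all 7 classes, at 0.50 to 0.96. The list was chosen with results of these data known and is not independent evidence of its direction. As for the ligand, Ifnb1 was higher with MSA-2 in every class. It went from 12.98 to 2338 CPM in monocyte-like cells, on 13 untreated UMIs, and from 108 to 1096 CPM in macrophage-like cells. The monocyte-like log2 ratio was 7.49. With the macrophage, monocyte and dendritic gates joined, Ifnb1 went from 98.4 to 1450 CPM, a ratio of 3.88.

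Among 11 other feedback genes, Usp18 was the one at least 2-fold higher in all 7 classes. Over all genes with 50 UMIs, 3.86% (T-like) to 11% (monocyte-like) were 2-fold higher in a class. USP18 removes ISG15 from proteins and binds IFNAR2, where it limits signaling. It went from 27.1 to 83.1 CPM in tumor-like cells, a log2 ratio of 1.62 (1.56 to 1.67), and from 30.1 to 334 CPM in endothelial-like cells, a ratio of 3.47 (2.76 to 4.27). Ptpn2, a phosphatase of JAK1 and STATs, was also 2-fold higher in fibroblast-like and monocyte-like cells, at 1.16 and 1.11. With the macrophage, monocyte and dendritic gates joined, the Ptpn2 ratio was 0.75 (0.64 to 0.85), which is under 2-fold. Those 2-fold lower were Ptpn6 in tumor-like and NK-like cells, Socs2 and Socs3 in T-like cells and Cish in NK-like cells. Of all genes, 5.1% were 2-fold lower in tumor-like, 9.26% in T-like and 5.13% in NK-like cells. Ptpn6 in tumor-like cells was at 3.08 and 1.20 CPM while the macrophage marker sum there went from 729 to 213 CPM, with 12 of 12 markers above 0 in both libraries, and the part of that RNA in the Ptpn6 value was not tested. Socs3 in T-like cells was at 86.2 and 42.6 CPM, a ratio of -1.02 (-1.60 to -0.48), while the macrophage marker sum there went from 1740 to 223 CPM, with 12 and 8 of 12 markers above 0. Macrophage-like cells themselves had 603 and 387 CPM of Socs3, and the part of macrophage RNA in the T-like Socs3 value was not tested. In NK-like cells, where Ptpn6 was at 93.3 and 27.7 CPM, the same marker sum went from 1324 to 495 CPM, and its part was not tested either. The other listed genes, among them Pias1, Ptpn1 and Ptpn11, did not reach 2-fold in any class in which they had 50 UMIs.

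Few of the further JAK and STAT genes listed passed 2-fold. Jak2, the kinase of the interferon-γ receptor, was 2-fold higher in tumor-like and fibroblast-like cells, at 1.03 and 1.08, and Stat5a in fibroblast-like cells. Stat4 was 2-fold lower in tumor-like and monocyte-like cells and Stat5b in NK-like cells. Of all genes, 9.36% in tumor-like and 6.3% in fibroblast-like cells were 2-fold higher. The shares 2-fold lower were 5.1% in tumor-like, 10.2% in monocyte-like and 5.13% in NK-like cells. The monocyte-like Stat4 ratio was -1.60, and -0.92 when the macrophage, monocyte and dendritic gates were joined, which is under 2-fold. Stat4 in tumor-like cells was at 3.55 and 1.10 CPM while the T cell marker sum there went from 15.8 to 2.57 CPM, with 6 of 6 markers above 0 in both libraries, and the part of that RNA in the Stat4 value was not tested.

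Across 16 class-by-library profiles with at least 50 cells, the genes with a profile most like that of each member were ranked by Pearson's r of log2(CPM + 10) among 6459 genes. These values are descriptions, since the profiles share their libraries and classes of the same library. For Stat2 they were Tdrd7 (r = 0.94), Oasl2 (0.93) and Il15 (0.91), and for Irf9 they were Rnf114 (0.90), Trim30a (0.89) and Irf2 (0.88). For Ifnar1 they were Rab10os (0.95), Mapkapk3 (0.94) and Runx3 (0.94), and for Ifnar2 Socs3 (0.91), Bach1 (0.88) and Grn (0.86). Jak1 was closest to Ablim1 (0.93), Bcor (0.90) and Gimap1 (0.89), and Tyk2 to Prex1 (0.90), Rnaset2a (0.88) and Irf8 (0.87). Socs1 had no gene as close, with Ahi1 at 0.79, Atp10a at 0.66 and Prdx6 at 0.65. Between members, r was 0.80 for Ifnar1 with Tyk2 and 0.78 for Stat2 with Irf9, while Ifnar1 with Ifnar2 gave -0.03.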

How the data were processed

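The values that the authors deposited are UMI counts, not normalized, of 10x Chromium 3′ (v3.1) libraries. Per the file headers they were made with Cell Ranger 7.0.1, while the submitters' processing notes name Cell Ranger 7.0.0, Seurat 4.3.0 and build mm10. Deposited totals were 198135335 UMIs in 14386 untreated and 204387165 UMIs in 14617 MSA-2 barcodes. Barcodes needed 500 detected genes or more and no more than 20% of UMIs from mitochondrial genes, and doublets called with Scrublet in scanpy 1.11.5 (5.022% untreated, 4.082% MSA-2) were removed.

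Cells were gated per cell, in a fixed order, by the number of markers detected and their summed UMIs per 10000. The gate thresholds were set after the cells had been seen, and 4.65% and 6.00% of cells stayed ungated. Member UMIs were summed over a class and scaled to CPM. Intervals are exact Poisson for levels and conditional binomial (Clopper-Pearson) for ratios. The code was tested on simulated data. The members and gene lists were chosen with earlier results of these data known, and named genes are the members, the listed genes and the 3 genes most like each member (mean of at least 20 CPM). Alternatives were the cell filter, doublets, gates, edgeR 4.0.16 TMM scaling, equal weight per cell, the denominator, the UMI minimum and thinning. Python 3.11.15, numpy 2.4.6, scipy 1.17.1, pandas 2.3.3 and matplotlib 3.10.9 were used. The values of 1 listed JAK-STAT gene are not reported here.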

Additional observations from a re-analysis of the deposited data

Results flagged for a closer look

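Ifnar2 and Socs1 had log2 ratios of at least 0.5 in opposite directions in 2 classes, each beyond counting error. Ifnar1 and Jak1 also had ratios of both signs beyond counting error, with the higher one under 0.5, at 0.16 for Ifnar1 in tumor-like and 0.09 for Jak1 in macrophage-like cells. The log2 ratio (MSA-2 over untreated) of Ifnar2 came to 0.75 in fibroblast-like and -0.83 in monocyte-like cells, a gap of 1.58; the monocyte-like value was -0.29 when the macrophage, monocyte and dendritic gates were joined. The Socs1 ratio was 0.95 in macrophage-like and -0.94 in endothelial-like cells, a gap of 1.88. With 1 library per condition neither difference was tested. The Socs1 ratio in endothelial-like cells was -0.14 with equal weight per cell.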

How the results depend on the processing

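No paired analysis was possible because each condition has 1 library, and for the same reason no replicate could be left out. Stat2 was higher with MSA-2 in all 7 classes under every alternative run, and Ifnar1 was lower in macrophage-like, monocyte-like and NK-like cells under each. Of the ratios whose interval excluded 0, Jak1 in macrophage-like cells alone changed its sign, from 0.09 to -0.02 with joined gates. The count of members at least 2-fold higher changed in 6 classes. In fibroblast-like cells it was 2, and 1 with doublets kept and with a stricter gate. In endothelial-like cells it was 2, and 1 with equal weight per cell. In macrophage-like and in monocyte-like cells it was 1, and 2 with TMM scaling. In T-like cells it was 1, and 0 with doublets kept. In NK-like cells it was 2, then 1 with doublets kept and with a stricter gate and 0 with equal weight per cell. Joining the macrophage, monocyte and dendritic gates, an alternative chosen after seeing the data, gave ratios of -0.29 for Ifnar2, -0.02 for Jak1, -0.03 for Tyk2 and 0.87 for Socs1, against -0.83, -0.52, 0.70 and 0.08 in monocyte-like cells, and 6 of 14 ratios moved beyond counting error. Under the other alternatives, of the 49 log2 ratios, 10 moved beyond counting error with TMM scaling, 7 with equal weight per cell, 1 with the other denominator, 1 with a stricter gate and 0 with either cell filter or doublets kept; the causes were not tested. After thinning each cell to 1500 UMIs, 86 of 98 levels stayed within counting error. The Tyk2 interval included 0 in 6 of 7 classes, and under at least 1 alternative its ratio reached -1.56 in endothelial-like, -1.10 in T-like, -1.11 in NK-like and 1.01 in monocyte-like cells.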

Other observations

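The genes of the interferon-γ arm and the receptors that share these kinases gave a further set of values. Ifngr1 and Ifngr2, the chains of the interferon-γ receptor, were both lower with MSA-2 in monocyte-like cells. Ifngr1 went from 226 to 70.1 CPM and Ifngr2 from 146 to 44.3 CPM. Their log2 ratios were -1.69 (-1.98 to -1.40) and -1.72 (-2.08 to -1.36). With the macrophage, monocyte and dendritic gates joined, the ratios were -0.70 for Ifngr1 and -1.16 for Ifngr2. Cd74, Lyz2, Ccr2 and Nkg7 were also lower in the monocyte-like class, and their part in its Ifngr1 and Ifngr2 ratios was not tested. In macrophage-like cells Ifngr2 went from 121 to 57.8 CPM, a ratio of -1.07 (-1.23 to -0.91), and in T-like cells Ifngr1 went from 774 to 424 CPM, a ratio of -0.87 (-1.04 to -0.70). Irf1, a target of this arm, was at 233 and 309 CPM in tumor-like cells, a ratio of 0.41, and at 472 and 310 CPM in endothelial-like cells, a ratio of -0.61 (-0.86 to -0.35).

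Il10rb, which lies between Ifnar2 and Ifnar1 on chromosome 16, was among 6 listed genes for chains of receptors that use JAK1 or TYK2. Its ratios were -0.02 in both tumor-like and fibroblast-like cells, -0.24 in macrophage-like and -0.57 (-0.95 to -0.17) in monocyte-like cells. Among the listed genes with 50 UMIs, Il12rb1 was 2-fold higher in tumor-like cells, and Il10ra was 2-fold higher in T-like cells at 1.33 (1.06 to 1.59). Of all genes, 9.36% in tumor-like and 3.86% in T-like cells were 2-fold higher. Il6st in T-like cells, where 9.26% of genes were 2-fold lower, had a ratio of -1.001 (-2.25 to 0.03) on 106 and 8 UMIs.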
